A study of Mus musculus with 4 samples.

Results

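The 41 genes described here belong to the unfolded protein response and the heat shock response, and they were followed in primary mouse embryonic fibroblasts (MEFs) that lack RBP2. They were picked by name: a list of stress sensors, chaperones and response genes, each read on the probe set that the array annotation gives to that gene symbol alone and that had the highest mean over the 4 arrays. Of the 41 genes, 40 had such a probe set, out of 18194 genes in the whole series. Hsf1, the transcription factor of the heat shock response, had none and was not analysed here. The 40 genes were split by role into 4 sensors of endoplasmic reticulum (ER) stress, 16 ER chaperones and folding enzymes, 4 genes of ER-associated degradation, 6 genes of the ATF4 arm, 8 cytosolic heat shock genes and 2 mitochondrial chaperonins. Serpinh1, a chaperone of procollagen, was counted with the ER chaperones.

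The arrays compared 2 lines of RBP2-/- MEFs with 2 lines of wild-type MEFs, all primary cultures at passage 3, with 1 Affymetrix array per line. RBP2 (retinoblastoma binding protein 2, gene symbol Kdm5a) is a histone demethylase, and the RBP2-/- label denotes loss of both gene copies. No stress or other treatment is named for any line, so the values describe cultures with no stated stimulus. The labels used here give no strain, sex, embryo age or extent of the deletion.

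The ER folds secreted and membrane proteins. When unfolded protein builds up there, the membrane sensors IRE1 (Ern1), PERK (Eif2ak3) and ATF6 switch on chaperone genes, degradation genes and, through the transcription factor ATF4, genes of amino acid supply and of the decision between recovery and cell death. Unfolded protein in the cytosol instead activates HSF1, which drives heat shock protein genes. Fibroblasts secrete collagen and fibronectin in bulk, and so carry a heavy folding load in the ER even at rest.

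Kdm5a was read first, as a check of the labels. Its brightest probe set had normalised signals of 75.53 and 80.65 in RBP2-/- lines, against 96.47 and 191.5 in wild-type lines. Both RBP2-/- lines were lower, by -0.74 (SE 0.34) on the log2 scale, but the difference did not pass the limma test (adjusted p = 0.9999). Its dimmer kept probe sets lay between -1.24 and 0.24, and where any of them lies relative to the deleted part is not given in the labels. The deposited signals differed in brightness, with array medians of 21.5 and 43.7 for RBP2-/- and 22.7 and 29.4 for wild type, and were therefore quantile-normalised. Wild-type replicate 1 stood apart: over all non-control probe sets its correlation with the other arrays was 0.933 to 0.937, while the highest correlation between other arrays was 0.962. Values without that array are given for many of the results below. All 16 fibroblast markers examined passed the brightness filter, and their summed normalised signal was 53330 and 57390 in RBP2-/- lines, against 51500 and 57710 in wild-type lines. Pdgfra, one of these markers, was low on wild-type replicate 1, at 43.67, against 478.6 on the other wild-type array and 167.9 and 448.1 on the RBP2-/- arrays.

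No member passed the test for a genotype difference. Each value below is a normalised signal, each fold change is on the log2(signal + 9) scale as RBP2-/- minus wild type, and the test was limma's, with p-values adjusted over all 27022 probe sets that passed a filter on brightness. All 40 measured members passed that filter. At an adjusted p under 0.05, 0 of 40 members were called, where the series as a whole had 1 probe set (0.0037%). At an unadjusted p under 0.05 there were again 0 of 40, against 797 probe sets or 2.95% over the series. With 2 lines a genotype, an exact permutation test of a single gene cannot go below p = 0.333, so calls can come only from the fit across all probe sets. In bulk RNA of a culture, fewer cells that express a gene and less RNA per cell cannot be told apart.

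The fit nevertheless bounds the difference on each gene's brightest probe set under quantile normalisation. These bounds do not cover a gene's other probe sets or the choice of scaling. All 40 of the 95% confidence intervals include 0, and 38 of them lie within a 2-fold difference in either direction. The 2 wider ones belong to Ddit3 and Hspb1, and the outermost bounds are -1.14 for Hspb1 and 0.954 for Ern1. The median standard error of the members was 0.209, against 0.324 over all kept probe sets. In 34 of 40 members the difference between the 2 lines of one genotype was larger than the difference between genotypes. That share was not computed over all kept probe sets. Their median absolute gap between lines was 0.3 in RBP2-/- and 0.348 in wild type, beside a median absolute genotype difference of 0.21. For members these medians were 0.228, 0.184 and 0.123. Members are read on each gene's brightest probe set, while all kept probe sets include dimmer ones. The errors, gaps and differences of the 2 sets are therefore not compared like for like.

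By direction, 27 members lay below 0 and 13 above, with a median log2 fold change of -0.072, against 0.012 over the 23020 kept probe sets with 1 gene symbol. Both RBP2-/- arrays lay below both wild-type arrays in 9 of 40 members (22.5%), against 14.9% of all kept probe sets. The opposite arrangement was found in 1 of 40 members (2.5%), against 14.6% of all kept probe sets. These directions depended on how the arrays were scaled. With arrays centred on their medians, or with no scaling, and fold changes taken relative to the median over all kept probe sets (0.183 and 0.383 under these settings), 17 members lay below 0 and 23 above, with a median of 0.035. Without that subtraction, centring on medians gave 11 members whose groups did not overlap, and all 11 were higher in RBP2-/- lines, the arrangement of 23.64% of all kept probe sets under that setting. Without wild-type replicate 1, 25 members lay below 0 and 15 above, with a median of -0.073.

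**Figure D1:**
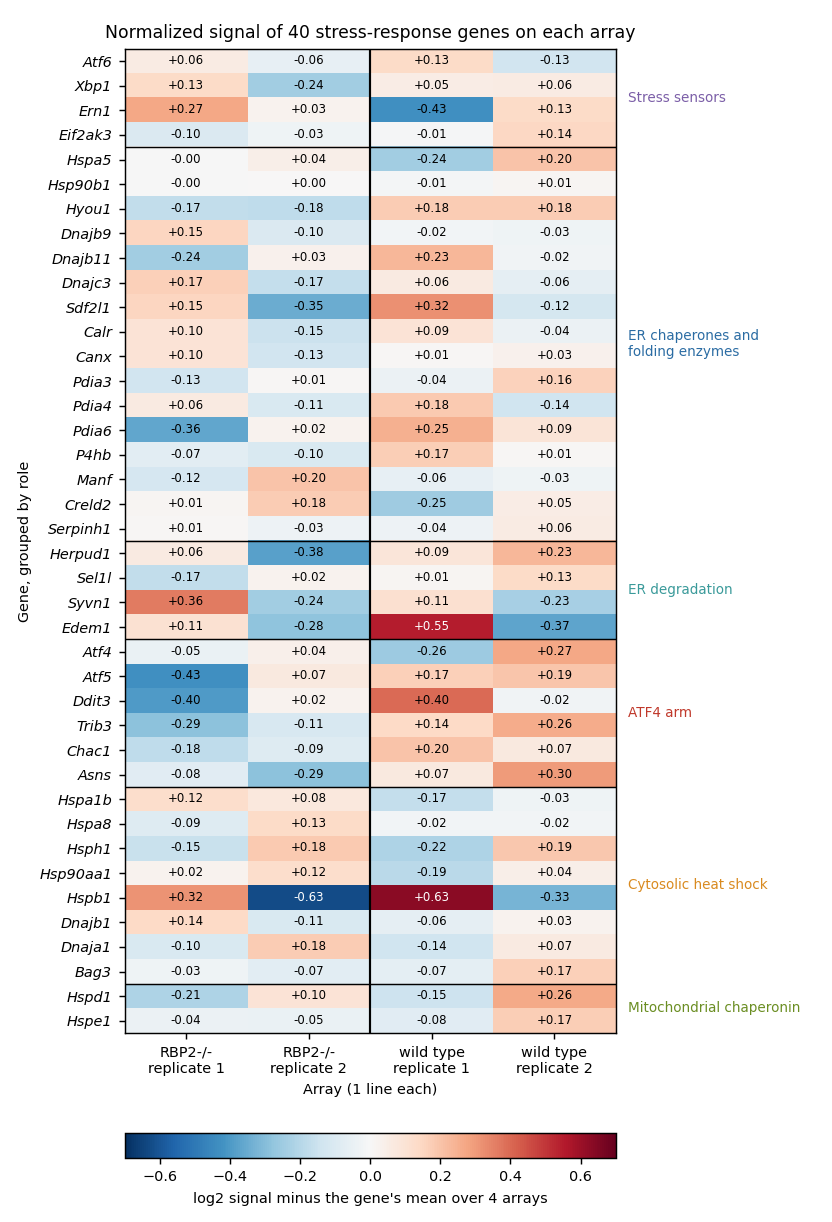
Each row is one of the 40 measured genes, grouped by role, and each column is an array, with the 2 RBP2-/- arrays left of the 2 wild-type arrays. The colour is the log2(normalised signal + 9) of that gene minus its own mean over the 4 arrays, and the ATF4 arm is the block where both RBP2-/- columns are mostly below both wild-type columns.

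Parts of the promoters are printed here because they hold the elements through which the response factors are known to act. A window of 300 bases, from 250 before to 50 after the start, was found for 35 of the 41 genes in RefSeq (mouse build GRCm38.p6). Atf6, Hyou1, Manf, Hsf1, Hspa8 and Hsp90aa1 had no entry. The ER stress element, read by ATF6 and XBP1, was searched as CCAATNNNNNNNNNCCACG on both strands. This element was found in 8 of the 35 members, against 0.137% of all 27025 genes with a window. A gene with several windows was counted once, if any of them held a match. The holders are the ER chaperones Hspa5, Hsp90b1, Dnajc3, Calr, Canx, Pdia6 and Creld2, which are 7 of the 14 ER chaperones with a window, and Syvn1 of the degradation group. A short form, made of ATTGG and CCACG with 1 base between them, was in Dnajb11 and Herpud1 and in 0.0444% of all genes with a window. The core CCACG, which both forms contain, was in 28 of 35 members and in 35.5% of all genes with a window. The ATF4 and C/EBP element TGATGNAA was in Trib3, Chac1 and Asns of the ATF4 arm and in Herpud1, and in 4.51% of all genes with a window. The heat shock element, searched as GAANNTTCNNGAA or TTCNNGAANNTTC, was in Hsph1, Hspd1 and Hspe1, and in 0.662% of all genes with a window. A match to letters is a description of the window and was not tested for binding.

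The first set shows the ATF4 and C/EBP element (capitals) in the 3 ATF4 arm genes that hold it in the window, 5′ to 3′ on the gene's strand. The stretches are chr6:7693195-7693262 (minus strand) for Asns, chr2:119351019-119351086 (plus strand) for Chac1 and chr2:152344031-152344076 (minus strand) for Trib3. In Chac1 and Trib3 the element lies on the opposite strand and is printed as its reverse complement.
Asns: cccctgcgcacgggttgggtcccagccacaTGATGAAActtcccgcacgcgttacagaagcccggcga
Chac1: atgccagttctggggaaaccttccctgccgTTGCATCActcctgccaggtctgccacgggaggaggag
Trib3: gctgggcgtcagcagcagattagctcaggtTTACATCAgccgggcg

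The next set shows the ER stress element (capitals) in Hspa5, at chr2:34771995-34772073 (plus strand), and in Hsp90b1, at chr10:86705503-86705686 (minus strand), which holds a copy in each orientation. Herpud1, at chr8:94386287-94386417 (plus strand), is shown because it carries an element of both arms: in capitals come first the ATF4 and C/EBP element on the opposite strand and then the short form of the ER stress element.
Hspa5: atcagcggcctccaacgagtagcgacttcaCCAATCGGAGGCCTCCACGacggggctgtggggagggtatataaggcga
Hsp90b1: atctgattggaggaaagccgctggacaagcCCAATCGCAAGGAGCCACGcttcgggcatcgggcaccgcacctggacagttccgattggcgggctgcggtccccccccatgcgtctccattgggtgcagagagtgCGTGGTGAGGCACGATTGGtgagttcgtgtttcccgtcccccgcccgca
Herpud1: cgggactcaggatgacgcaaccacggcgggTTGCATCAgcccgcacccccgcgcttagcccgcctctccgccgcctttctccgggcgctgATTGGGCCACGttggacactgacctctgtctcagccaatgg

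The last set shows the heat shock element (capitals) in Hsph1, at chr5:149636286-149636330 (minus strand), and in Hspe1, at chr1:55088029-55088106 (plus strand). The Hspe1 element is 2 overlapping matches, and its window is the divergent promoter shared with Hspd1, so these 2 genes hold the same element.
Hsph1: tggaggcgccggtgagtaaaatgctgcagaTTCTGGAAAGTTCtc
Hspe1: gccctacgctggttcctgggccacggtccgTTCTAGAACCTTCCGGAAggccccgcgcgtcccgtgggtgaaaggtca

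**Figure D2:**
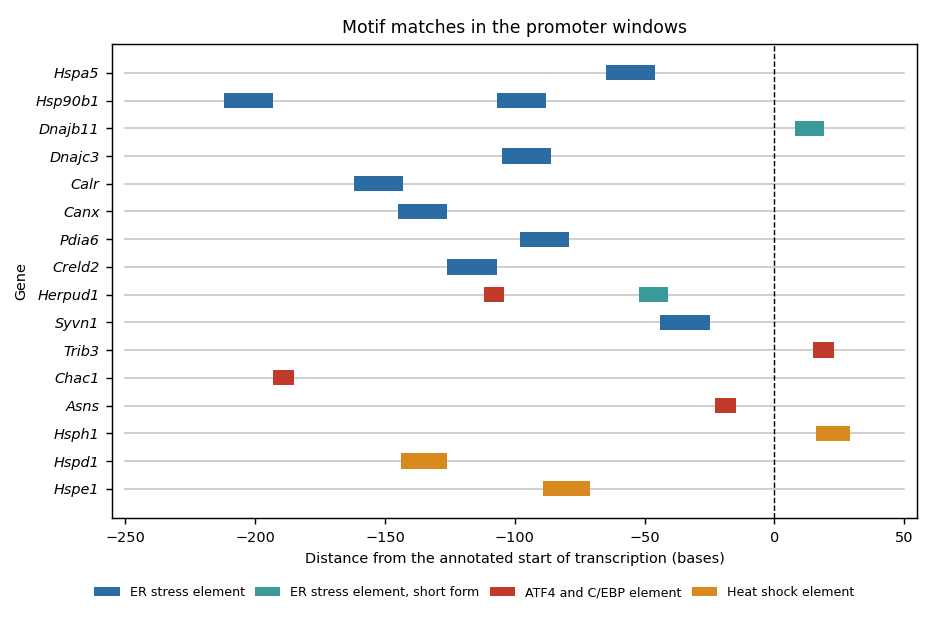
Each grey line is the promoter window of a gene, with the distance in bases from the annotated start (dashed line) on the horizontal axis, and each coloured box is a motif match on either strand, for the first listed start of each gene. The ER stress element is found in Syvn1 and in ER chaperones, and Herpud1 is the gene that holds elements of 2 kinds.

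Set beside the genotype difference, the holders of the ATF4 and C/EBP element had log2 fold changes from -0.40 (Trib3) to -0.27 (Chac1). Those of the full ER stress element lay between -0.34 (Pdia6) and 0.20 (Creld2), on both sides of 0. Holders of its short form were at -0.21 (Dnajb11) and -0.32 (Herpud1), and those of the heat shock element between -0.12 (Hspd1) and 0.03 (Hsph1). In the ATF4 arm, the genes with no match to the ATF4 and C/EBP element in the window were at -0.36 (Atf5), -0.37 (Ddit3) and -0.01 (Atf4). Sequence outside the window was not searched, so these genes may still hold the element.

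The sensors of ER stress had log2 fold changes from -0.13 to 0.30, none past the test. Eif2ak3 encodes PERK, the kinase that slows translation and so raises ATF4. It had normalised signals of 162.3 and 170.6 in RBP2-/- lines, against 173.3 and 193.7 in wild-type lines, with a log2 fold change of -0.13 (SE 0.24). Both RBP2-/- lines lay below both wild-type lines, by less than the fit's error. Ern1 encodes IRE1, which splices Xbp1 mRNA, and had 155.2 and 129.4 in RBP2-/- lines, against 91.94 and 140.2 in wild-type lines. Its log2 fold change of 0.30 (SE 0.29) rests on wild-type replicate 1 and is 0.015 without it, and its dimmer kept probe sets lie between -0.46 and -0.12. Xbp1, the factor made from the spliced mRNA, had 1535 and 1181 in RBP2-/- lines, against 1452 and 1455 in wild-type lines, a log2 fold change of -0.11 (SE 0.20). Splicing of Xbp1 was not analysed here. Atf6, the sensor that is cut in the Golgi to release a transcription factor, had a log2 fold change of -0.001 (SE 0.249) on its brightest probe set. Its dimmer kept probe sets were at -0.11 and 0.435. On the latter both RBP2-/- arrays lay above both wild-type arrays, and the value was 0.114 without wild-type replicate 1. Over the 4 sensors the median was -0.055, and it was 0.069 without RBP2-/- replicate 2.

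Among the ER chaperones and folding enzymes, 11 of 16 lay below 0 and 5 above, with a median log2 fold change of -0.044, which is 0.010 without RBP2-/- replicate 2 and 0.048 with the other scalings. Hspa5 encodes BiP, the abundant chaperone whose release switches on the sensors, and is the usual gauge of ER stress. It had normalised signals of 3600 and 3710 in RBP2-/- lines, against 3044 and 4136 in wild-type lines. The RBP2-/- values fall between the wild-type ones, and the log2 fold change was 0.04 (SE 0.19, 95% interval -0.38 to 0.46), or -0.17 without wild-type replicate 1. Hsp90b1, the ER member of the HSP90 family (GRP94), had 2094 and 2097 in RBP2-/- lines, against 2078 and 2119 in wild-type lines. With a log2 fold change of -0.002 (SE 0.163) and a range of -0.017 to 0.015 as each array was left out in turn, it had the smallest such range of the 40 members. Calr and Canx, the lectin chaperones that retain unfolded glycoproteins, were at -0.05 (SE 0.16) and -0.04 (SE 0.17) in log2 fold change. The collagen chaperone Serpinh1 had 4561 and 4429 in RBP2-/- lines, against 4415 and 4726 in wild-type lines, with a log2 fold change of -0.02 (SE 0.15).

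In 3 of the 16 ER folding genes (18.75%) both RBP2-/- arrays were below both wild-type arrays, a share near the 14.9% of all kept probe sets. Hyou1, an HSP70-like exchange factor for BiP, had 1332 and 1327 in RBP2-/- lines, against 1698 and 1698 in wild-type lines. The lines of a genotype agreed closely there, the log2 fold change was -0.35 (SE 0.17, 95% interval -0.74 to 0.04), and it stayed between -0.38 and -0.34 as each array was left out. Its dimmer probe sets gave -0.17 and 0.37, so they did not share one direction. Pdia6, a disulfide isomerase that also dampens IRE1 and PERK signalling, had 967.8 and 1269 in RBP2-/- lines, against 1485 and 1330 in wild-type lines. The difference was -0.34 (SE 0.20) in log2, and -0.15 without RBP2-/- replicate 1. P4hb, which encodes protein disulfide isomerase and the beta subunit of collagen prolyl hydroxylase, had 3496 and 3420 in RBP2-/- lines, against 4150 and 3695 in wild-type lines, a log2 fold change of -0.18 (SE 0.16) that was -0.095 without wild-type replicate 1.

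The rest of the ER chaperone group had overlapping lines and log2 fold changes from -0.21 (Dnajb11) to 0.20 (Creld2). The BiP co-chaperones Dnajb9, Dnajb11 and Dnajc3 were at 0.05 (SE 0.21), -0.21 (SE 0.24) and 0.004 (SE 0.218). The isomerases Pdia3 and Pdia4 were at -0.13 (SE 0.17) and -0.05 (SE 0.24). Manf, a secreted BiP cofactor, was at 0.08 (SE 0.19), and Sdf2l1, a partner of ER J-domain proteins, at -0.20 (SE 0.31). Creld2, a secreted target of ATF6, kept its sign under the 9 distinct settings that alter the fold changes, with 146.3 and 165.1 in RBP2-/- lines, against 120.5 and 150.4 in wild-type lines, but its lines overlapped. The log2 fold change of 0.20 had an interval from -0.39 to 0.78, and it was 0.046 without wild-type replicate 1.

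The genes of ER-associated degradation, which pull misfolded proteins out of the ER, had a median log2 fold change of -0.16, and of 0.039 without wild-type replicate 1. Herpud1, a scaffold of the retrotranslocation complex, had 539 and 394.4 in RBP2-/- lines, against 548.1 and 608 in wild-type lines. Its groups did not overlap, with a log2 fold change of -0.32 (SE 0.23) that ranged from -0.54 to -0.10 as each array was left out. Sel1l, the adaptor of the ubiquitin ligase Syvn1, had 441.1 and 506.3 in RBP2-/- lines, against 503.2 and 546.5 in wild-type lines on its brightest probe set, where the groups overlapped. All 5 of its kept probe sets had negative log2 fold changes, at -0.15 for the brightest and -0.16 to -0.36 for the other 4, and in those 4 both RBP2-/- arrays were lower than both wild-type arrays. These probe sets read one transcript unit in the same 4 RNA samples and are not replicates of one another. Syvn1 itself, the ligase, was at 0.12 (SE 0.27). Edem1, which passes misfolded glycoproteins on for degradation, had 483.5 and 367.3 in RBP2-/- lines, against 660.7 and 344.8 in wild-type lines. The log2 fold change of -0.18 (SE 0.32) was 0.29 without wild-type replicate 1, the array that carried the high value, and its other probe set was at 0.24.

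In the ATF4 arm all 6 genes lay below 0, with a median log2 fold change of -0.36. In 4 of the 6 both RBP2-/- arrays were below both wild-type arrays, which is the arrangement of 14.9% of all kept probe sets. None of the 6 passed limma's test. Trib3, a pseudokinase that restrains ATF4 and AKT, had normalised signals of 261.1 and 296.3 in RBP2-/- lines, against 354.1 and 385.5 in wild-type lines. Its log2 fold change was -0.40 (SE 0.22, 95% interval -0.90 to 0.11), and -0.49 to -0.31 as each array was left out. Asns, asparagine synthetase, had 1820 and 1576 in RBP2-/- lines, against 2023 and 2375 in wild-type lines. For Asns the log2 fold change was -0.37 (SE 0.18, 95% interval -0.78 to 0.04), and -0.48 to -0.26 as each array was left out.

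Chac1, a glutathione-degrading enzyme, had 467.6 and 496.9 in RBP2-/- lines, against 610.6 and 557.4 in wild-type lines, with a log2 fold change of -0.27 (SE 0.20). The Trib3, Asns and Chac1 promoters are the 3 of this arm printed above with the ATF4 and C/EBP element. On the brightest probe sets both RBP2-/- arrays were lower in these 3 genes, and also in Atf5, whose windows held no match. That is the arrangement of 14.9% of all kept probe sets. On the dimmer kept probe sets of Trib3 and Asns the lines overlapped. Atf5, a transcription factor regulated like ATF4, had 483.5 and 684.9 in RBP2-/- lines, against 733.3 and 748.4 in wild-type lines. Its log2 fold change of -0.36 (SE 0.23) depended on RBP2-/- replicate 1 and was -0.11 without it. Ddit3, which encodes the cell death factor CHOP, had 128.4 and 174.9 in RBP2-/- lines, against 229.4 and 168.9 in wild-type lines. These overlap, and its log2 fold change of -0.37 (SE 0.28) was -0.16 without RBP2-/- replicate 1, -0.16 without wild-type replicate 1, and -0.58 and -0.59 without the other RBP2-/- and wild-type arrays.

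Atf4 mRNA itself had overlapping lines, with 1420 and 1503 in RBP2-/- lines, against 1227 and 1769 in wild-type lines, a log2 fold change of -0.01 (SE 0.21). ATF4 is controlled mainly through translation, which these arrays do not read. The other kept probe set of Atf4 gave 0.40 (SE 0.43), the only one of the arm's 9 kept probe sets above 0, and it was -0.23 without wild-type replicate 1. The dimmer probe sets of Trib3 and Asns were at -0.06 and -0.09, closer to 0 than the brightest ones. The arm's median was -0.19 without RBP2-/- replicate 1, -0.25 with the mean of each gene's probe sets and -0.22 relative to all probe sets under the other scalings. Leukocyte markers lay on the same side: 7 of 7 kept markers lay below 0 on their brightest probe sets. Other kept probe sets ran from -0.089 to 0.428 for Csf1r and from -0.104 to 0.924 for Laptm5. The summed signal of all 10 markers was 425.9 and 424.5 in RBP2-/- lines, against 618.3 and 478 in wild-type lines. The defining leukocyte gene Ptprc was too dim to be kept, and its signal was 15.53 or less on all 4 arrays. The median of the leukocyte markers was -0.28, and 0.0 without wild-type replicate 1, where the median of the ATF4 arm was -0.32. Of 7 kept epithelial markers 4 lay below 0, with a median of -0.29 that was -0.081 without that array. The summed signal of the 8 epithelial markers was 587.2 and 775.3 in RBP2-/- lines, against 924.7 and 693.1 in wild-type lines.

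**Figure D3:**
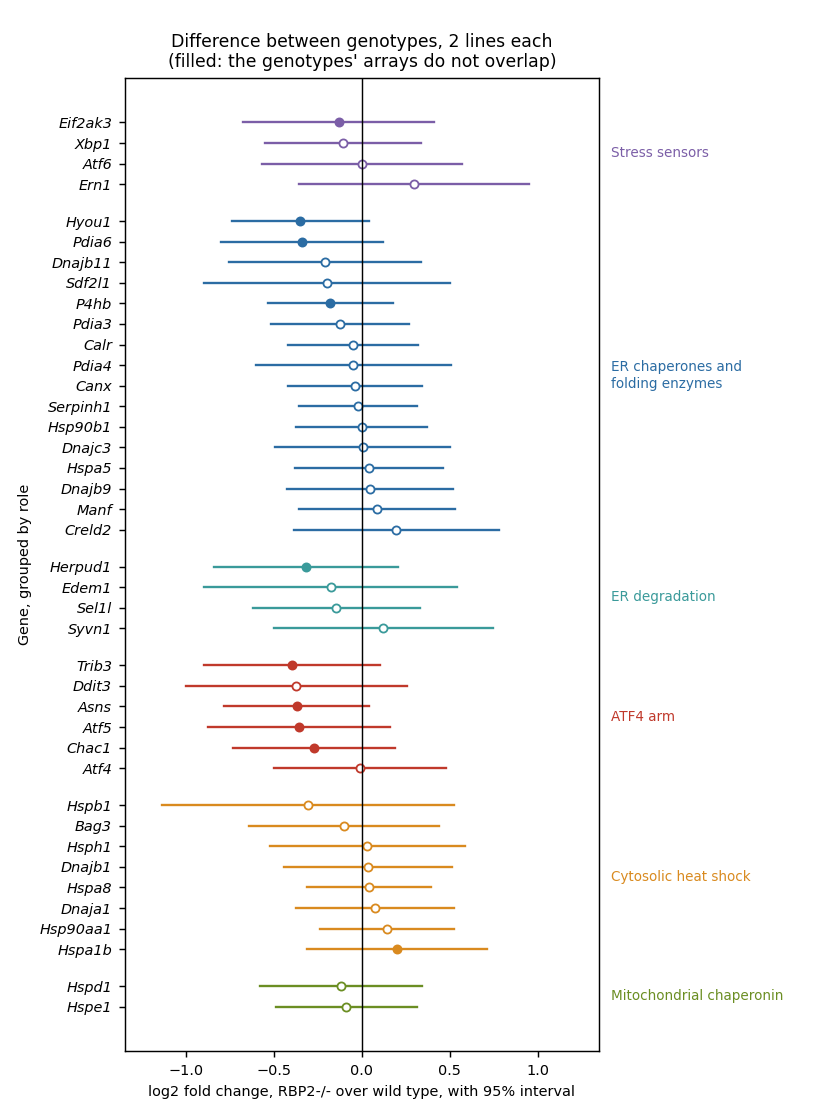
Each point is the log2 fold change of a member, RBP2-/- minus wild type, with its 95% confidence interval from the fit, grouped by role. Filled points mark members whose 2 RBP2-/- arrays do not overlap the 2 wild-type arrays, and every interval crosses 0.

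The cytosolic heat shock genes lay slightly on the other side of 0, with 6 above and 2 below and a median log2 fold change of 0.038. That median was 0.012 without wild-type replicate 1, 0.157 without RBP2-/- replicate 1 and 0.159 relative to all probe sets under the other scalings. Hspa1b, the strongly inducible HSP70, had 273.7 and 264.4 in RBP2-/- lines, against 221.9 and 245 in wild-type lines. It was the member in which both RBP2-/- arrays were above both wild-type arrays, with a log2 fold change of 0.20 (SE 0.23, 95% interval -0.32 to 0.71). Its other probe sets gave 0.19 and -0.26, and Hspa1b is nearly identical to Hspa1a, so its probe sets may read both copies. The probe set annotated to Hspa1a alone had 18.25 and 26.68 in RBP2-/- lines, against 29.77 and 22.68 in wild-type lines, which overlap. Hspa8, the constitutive HSP70, had 4366 and 5107 in RBP2-/- lines, against 4585 and 4592 in wild-type lines. The brightest probe set gave 0.04 (SE 0.16) in log2 fold change, and its other probe sets, all above 0, lay between 0.19 and 0.55. Hsp90aa1, the inducible cytosolic HSP90, had 2893 and 3096 in RBP2-/- lines, against 2501 and 2929 in wild-type lines, a log2 fold change of 0.15 (SE 0.17) that was 0.033 without wild-type replicate 1.

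The HSP70 partners were near 0 on their brightest probe sets. Dnajb1 and Dnaja1, J-domain co-chaperones, were at 0.04 (SE 0.21) and 0.07 (SE 0.20). Hsph1, an HSP110 exchange factor, was at 0.03 (SE 0.24), and Bag3, a co-chaperone of selective autophagy, at -0.10 (SE 0.24). Dimmer kept probe sets gave 0.23 for Dnajb1, -0.13 and 0.38 for Dnaja1, and -0.15 for Hsph1. Hspb1, the small heat shock protein HSP27, had the widest spread, with 2280 and 1182 in RBP2-/- lines, against 2843 and 1459 in wild-type lines. Replicate 2 minus replicate 1 was -0.94 in RBP2-/- lines and -0.96 in wild-type lines on the log2 scale. The genotype difference of -0.31 (SE 0.37) was smaller than either gap, and it ran from -0.78 to 0.17 as each array was left out. Of 8 skeletal muscle markers, Acta1 also split by replicate number, at 1137 and 225.8 in RBP2-/- lines, against 662.9 and 295.1 in wild-type lines. The other 7 markers together were also higher on replicate 1 in both genotypes, but by less. Their summed signals were 292 and 270.5 in RBP2-/- lines, against 272.1 and 211.8 in wild-type lines.

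The mitochondrial chaperonins Hspd1 (HSP60) and Hspe1 (HSP10), which share the divergent promoter shown above, were at -0.12 (SE 0.20) and -0.09 (SE 0.18). Hspd1 had 1999 and 2480 in RBP2-/- lines, against 2097 and 2788 in wild-type lines, and Hspe1 had 1837 and 1828 in RBP2-/- lines, against 1789 and 2127 in wild-type lines. The lines overlapped for both, and the median of the pair was -0.10, or 0.061 without wild-type replicate 2.

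The same pattern as in Hspb1, a gap between replicate numbers that has the same sign in both genotypes and is larger than the genotype difference, was present in 13 of 40 members. The share of all kept probe sets with this pattern was not computed, so the count cannot be called high or low. In Sdf2l1 replicate 2 minus replicate 1 was -0.50 in RBP2-/- lines and -0.44 in wild-type lines, and in Edem1 it was -0.39 and -0.92 in the same order. In Hsph1 it was 0.34 in RBP2-/- lines and 0.40 in wild-type lines, and in Hspd1 0.31 and 0.41. Over the 40 members these gaps in the 2 genotypes correlated with r = 0.459, against 0.109 over all 27022 kept probe sets, as a description. The labels do not say whether lines with the same number share a litter, a day or a chip batch, so what the shared gap stands for was not tested.

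**Figure D4:**
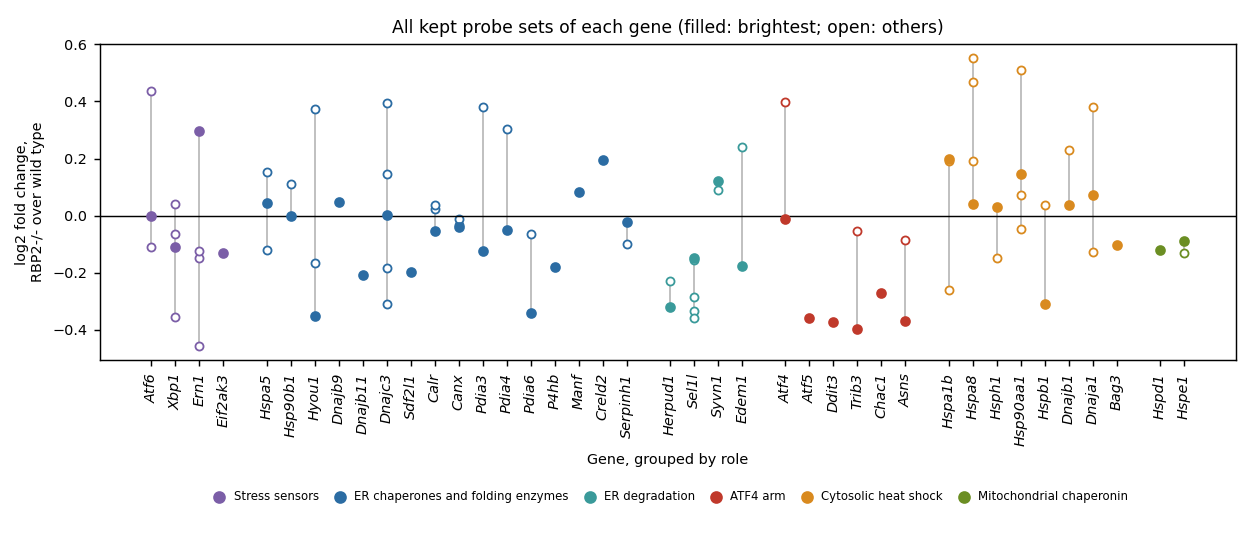
All 89 kept probe sets of the members are drawn by gene, as log2 fold change of RBP2-/- minus wild type, with the brightest of each gene marked. Of these, 53 lie below 0 and 36 above, and in 17 of the 28 genes with several kept probe sets these differ in sign.

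By arm, the kept probe sets lay below 0 in 9 of 12 for the sensors, 19 of 33 for the ER chaperones, 8 of 11 for degradation, 8 of 9 for the ATF4 arm, 6 of 21 for the cytosolic heat shock genes and 3 of 3 for the chaperonins. None of the 89 had an unadjusted p under 0.05 in limma's test. Fold changes were altered by 9 distinct settings. The setting without probe sets that may read several transcripts gave values for only 31 members. Across the settings in which each had a value, 15 of 40 members never turned sign. Of these, 12 lay below 0 (Eif2ak3, Hyou1, Dnajb11, Pdia6, P4hb, Herpud1, Sel1l, Atf5, Ddit3, Trib3, Chac1 and Asns) and 3 above (Creld2, Hspa1b and Hsp90aa1). The list includes 5 of the 6 genes of the ATF4 arm, all but Atf4. P4hb, Atf5 and Trib3 had no value in the setting with 31 members. Every member whose groups do not overlap is in the list, and with groups apart, leaving out an array can hardly turn a sign. The share of all kept probe sets that never turn sign was not computed, so the list adds no separate evidence.

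**Figure D5:**
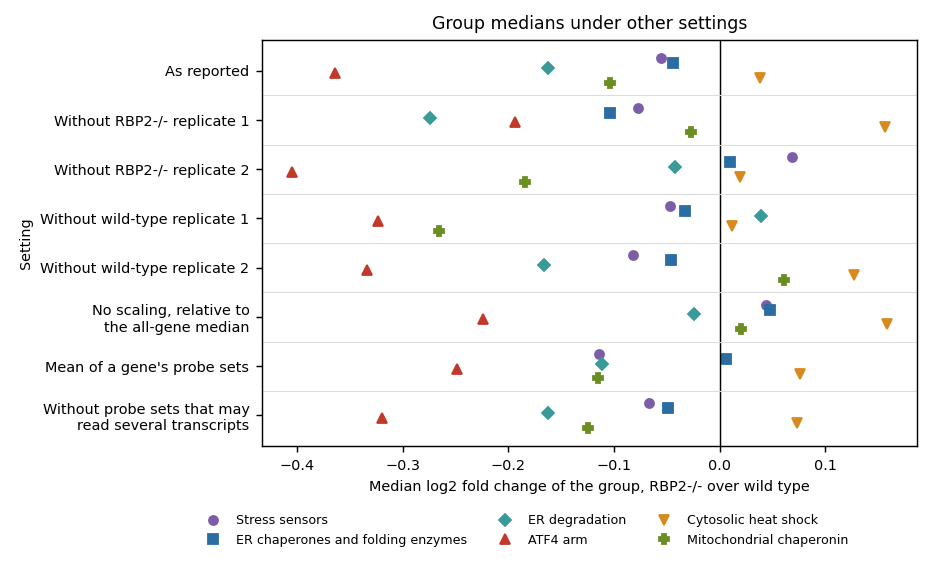
Each symbol is the median log2 fold change of an arm, RBP2-/- minus wild type, under the setting named on the left, with the values of the report in the top line. Among the settings drawn, the ATF4 arm lies between -0.41 and -0.19, the cytosolic heat shock genes lie between 0.012 and 0.159, and the other arms lie on both sides of 0.

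Longer lists of the same pathways, which hold none of the 41 genes, gave a wider view. None of their genes passed the test, and none had an unadjusted p under 0.05 in limma's fit. In the wider ER list, 29 of 49 kept genes lay below 0 and 20 above, with a median of -0.012. Its genes with the smallest p in each direction were Creb3l1, an ER-bound transcription factor of secretory and collagen genes, at -0.39 (SE 0.23), the chaperone Erp29 at -0.40 (SE 0.25), the retrotranslocation factor Derl1 at 0.24 (SE 0.18) and the translocon subunit Sec61a1 at 0.21 (SE 0.18). Without wild-type replicate 1, Creb3l1 was at -0.21 and Sec61a1 at 0.092. Over the whole list both RBP2-/- arrays were below both wild-type arrays in 12.24% of genes and above them in 8.163%, against 14.9% and 14.6% of all kept probe sets. In the wider ATF4 list, 30 of 44 kept genes lay below 0, and the median was -0.050 with all arrays. Without wild-type replicate 1 that median was -0.276, a value that rests on 1 wild-type line. The list's summed normalised signals were 23440 and 27490 in RBP2-/- lines, against 24070 and 30220 in wild-type lines, which overlap.

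Within that list Jdp2, an AP-1 family repressor, was at -0.38 (SE 0.23), and Slc3a2, the heavy chain of amino acid exchangers, at -0.27 (SE 0.20). Eif2ak4, the amino acid sensor GCN2, was at 0.98 (SE 0.55), and Slc7a11, the cystine exchanger, at 0.63 (SE 0.46). Both of those positive values rested on wild-type replicate 1, and without it were 0.027 and 0.049. Both RBP2-/- arrays were below both wild-type arrays in 6 of the 44 genes (13.64%), against 14.9% of all kept probe sets, and above them in 1 of 44 (2.273%), against 14.6%. In the wider heat shock list, 28 of 48 kept genes lay below 0, with a median of -0.026. Hsf2, a heat shock factor, was at -0.61 (SE 0.32), and Bag4, an HSP70 co-chaperone, at -0.37 (SE 0.26). The mitochondrial protease Lonp1 was at 0.58 (SE 0.33), or 0.33 without wild-type replicate 1, and the co-chaperone Dnajb2 at 0.39 (SE 0.29).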

How the data were processed

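The deposited values were analysed as intensities: a table of 45101 Affymetrix probe sets on a linear scale, 1 array for each of 4 lines, per the file headers. Total RNA was column-purified with DNase digestion and biotin-labelled, per the labels' protocols. The way probe signals were summarised is not stated there. For the fit, arrays were quantile-normalised, and 64 control probe sets were then set aside. The pseudocount of 9 is the rounded 25th percentile of the deposited intensities. The brightest 60% of probe sets by mean signal (27022) were kept and fitted with limma 3.58.1 in R 4.3.3 (lmFit, eBayes with trend; two-sided, Benjamini-Hochberg over the kept probe sets). Tested on simulated data, the fit returned the simulated fold changes on average. It called few of the smallest, which were log2 fold changes of 1 in either direction. No member's estimate exceeded that size. The simulated noise was independent between arrays.

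The array annotation gives 1 symbol to 34945 probe sets, several to 932 and none to 9160; a gene was read on the brightest probe set of the first kind. Named were all 41 genes, Kdm5a, marker genes, and from each longer list the 2 kept genes with the smallest p in each direction. The members and lists were chosen with earlier results of these data known. The design text calls the lines independent without saying from which embryos they came, so the p-values reflect the spread between these lines alone. Arrays give no read depth, and 2 arrays a genotype limit the precision. Promoter windows are RefSeq's. Alternatives tried were a replicate block, leaving out each array, and changes of scaling, filter, pseudocount, variance model and probe set choice.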

Additional observations from a re-analysis of the deposited data

How the results depend on the processing

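The count of members past the threshold was 0 under every alternative run, the adjusted p of 0.1 included. The series' count of called probe sets, 1 as reported, was 2 with arrays centred on their medians and 0 without the variance trend, without the filter and without scaling. It ranged from 1 to 41 as each array was left out, and the 41 came without wild-type replicate 2. With the replicate block it was 39. Replicate numbers are shared by the genotypes, but the labels give them no meaning, and the correlation of their gaps was 0.109. The replicate block gave 4 members an unadjusted p under 0.05 in limma's fit (Hyou1, Pdia6, Asns and Hspb1, all lower in RBP2-/- lines), against 6.398% of all probe sets, and adjusted p-values of 0.626 to 0.774. Leaving out an array leaves 1 line in a genotype, so a count of such members is not given for those fits. The other scalings gave, relative to all probe sets, medians of 0.044 for the sensors, 0.048 for the ER chaperones, -0.024 for degradation, -0.224 for the ATF4 arm, 0.159 for the cytosolic heat shock genes and 0.020 for the mitochondrial chaperonins. The mean of a gene's probe sets gave 0.006 for the ER chaperones and -0.249 for the ATF4 arm. As each array was left out, medians ranged from -0.082 to 0.069 for the sensors, -0.104 to 0.010 for the ER chaperones, -0.274 to 0.039 for degradation, -0.405 to -0.194 for the ATF4 arm and 0.012 to 0.157 for the cytosolic heat shock genes. Members whose groups do not overlap, 10 as reported, numbered 2 of 40 without scaling (16.98% of all probe sets), 5 of 31 without probe sets that may read several transcripts (30.03% of all), and 23 to 27 with 3 arrays, where 60.2% to 72.84% of all probe sets did not overlap. A lone line left in a genotype is assumed to vary like the others. The causes were not tested.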
